A study of Homo sapiens with 54 samples.

Results

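Dimethylation of lysine 9 of histone H3 (H3K9me2) was mapped by ChIP-seq in RH4 cells, a line from fusion-positive rhabdomyosarcoma, a childhood muscle-lineage tumor driven by the PAX3-FOXO1 fusion protein. The members were the 6 H3K9me2 peak lists of the 54 samples in the series, chosen by antibody and time. There were 3 lists from cells treated for 24 h with P3FI-90 and 3 from cells given the vehicle DMSO for 24 h, numbered 1, 3 and 5 in each condition. The cells of both conditions were RH4, labelled wild type, so every list carries the fusion gene. The labels write the compound as PFI-90 and give its dose as 1 µM for replicates 3 and 5, while the labels of the pair taken as replicate 1 carry no replicate number. RH4 is an established line grown from 1 tumor, so the 6 lists hold no variation between tumors. Only peaks with a −log10 p of at least 3 were counted, which left 553920 peaks in all.

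H3K9me2 is laid down mainly by the methyltransferases EHMT1 and EHMT2 and taken off by demethylases that include KDM3A and KDM3B. P3FI-90 was studied as an inhibitor of KDM3B. The mark lies in broad domains of silent chromatin, where proteins of the HP1 family bind methylated H3K9. A domain of this kind spreads over many nucleosomes with a shallow signal, and a peak caller reports it in pieces.

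The lists differed in size, and DMSO replicate 3 stood apart from the other 5. In replicate 1 the deposited lists began at a −log10 p of 1 and, at the shared threshold, still held 258061 (P3FI-90) and 236196 (DMSO) peaks, against 9290 to 26071 in the other lists. Of the bases covered in any list, 87.7% were in 1 list only. In DMSO replicate 3 the covered bases were 47.5% G or C, against 30.8% to 42.3% in the other 5 lists and 40.9% over the chromosomes. Results are therefore given within replicate number, and values per list that rest on replicate 3 are also given without it. A label check in the RNA-seq of the same treatment time placed the cells in the muscle lineage, since the myogenic regulators MYOD1 and MYOG were at 110.75 to 279.63 and 199 to 247.25 TPM in the 3 P3FI-90 libraries and at 192.33 to 290.43 and 295.7 to 389.59 TPM, a length-scaled share of all transcripts, in the 3 DMSO libraries. Of the 10 muscle tumor markers, MYF6 alone was at or near 0.

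A total of 24 stretches of at least 200 bases were covered by an H3K9me2 peak in all 6 lists, 10464 bases in all, and they are the only positions of that length at which every list had a peak. Bases covered in all 6 lists, in stretches of any length, were 0.0048% of the bases covered in any list. The sequences are thus examples of shared stretches and do not stand for the DNA of a whole list. Below are the stretch with the smallest p in the comparison of both conditions, followed by the 3 with the highest mean fold enrichment. Each is the forward strand of GRCh37, at most the central 300 bases of the stretch, in lower case with each CpG in capitals, so that CpG, the usual site of DNA methylation, can be counted by eye.
chr2:221452764-221453063: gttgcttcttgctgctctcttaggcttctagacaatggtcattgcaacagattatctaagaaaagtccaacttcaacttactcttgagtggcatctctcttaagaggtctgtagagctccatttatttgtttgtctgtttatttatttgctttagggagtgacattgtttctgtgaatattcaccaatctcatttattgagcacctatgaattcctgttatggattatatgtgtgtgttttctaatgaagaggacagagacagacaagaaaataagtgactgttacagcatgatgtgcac
chr3:86971722-86972021: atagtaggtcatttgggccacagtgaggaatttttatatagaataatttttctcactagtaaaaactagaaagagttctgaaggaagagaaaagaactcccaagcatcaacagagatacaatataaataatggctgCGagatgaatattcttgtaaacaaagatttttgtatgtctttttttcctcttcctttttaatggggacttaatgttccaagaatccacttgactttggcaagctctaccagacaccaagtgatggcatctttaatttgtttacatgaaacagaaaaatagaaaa
chr4:190623420-190623719: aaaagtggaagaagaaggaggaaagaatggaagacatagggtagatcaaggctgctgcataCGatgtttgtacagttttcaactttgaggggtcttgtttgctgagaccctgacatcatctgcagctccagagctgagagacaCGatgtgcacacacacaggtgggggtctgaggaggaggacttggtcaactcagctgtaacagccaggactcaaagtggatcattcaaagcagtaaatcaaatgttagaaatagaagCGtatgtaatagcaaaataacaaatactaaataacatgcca
chr4:190574487-190574719: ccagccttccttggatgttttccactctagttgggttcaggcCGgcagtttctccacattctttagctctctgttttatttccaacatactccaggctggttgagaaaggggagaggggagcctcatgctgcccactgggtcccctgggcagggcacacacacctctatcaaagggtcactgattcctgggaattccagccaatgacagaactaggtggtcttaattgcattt
The first lies between genes, 829.671 kb from EPHA4, the nearest protein-coding gene, and its window holds 0 CpG. The second lies in an intron of VGLL3, a transcription cofactor gene, and holds 1 CpG. The remaining pair lies 238.242 and 287.306 kb from FRG1 near the end of the long arm of chromosome 4 and holds 3 and 1 CpG. Over whole lists the CpG content was 7.41, 6.30 and 3.76 per kb in P3FI-90 replicates 1, 3 and 5, against 7.57, 11.2 and 3.68 per kb in the DMSO lists and 9.87 per kb over the chromosomes. All lists but DMSO replicate 3 were thus poorer in CpG than the genome.

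The number of H3K9me2 peaks did not move in a common direction with P3FI-90. There were 258061, 14922 and 9290 peaks in P3FI-90 replicates 1, 3 and 5, against 236196, 26071 and 9380 in the DMSO lists. Replicate 1 held slightly more peaks after P3FI-90, replicate 3 held fewer, and replicate 5 differed by under 1%. The fold of P3FI-90 over DMSO was 1.09, 0.572 and 0.990, with a mean log2 ratio of -0.23 ± 0.50 (SD, n = 3 pairs) and p = 0.75 in a two-sided exact sign-flip permutation test. With 3 pairs that test cannot go below 0.25, so no value per list could pass 0.05. Without replicate 3 the mean log2 ratio was 0.06. The study compared spike-in normalized reads in peaks of triplicate libraries and reported peaks that rose after P3FI-90 and none that fell. It also reported more H3K9me2 at start sites and PAX3-FOXO1 binding sites. Peak number and cover are other measures, drawn from peak calls without read counts, and cannot test that result.

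The covered sequence gave the same picture. Peaks spanned 149, 6.86 and 4.93 Mb in P3FI-90 replicates 1, 3 and 5, against 134, 12.4 and 4.72 Mb in the DMSO lists, and the covered length differed far more between replicate numbers than between conditions. As a share of the chromosomes this was 5.27%, 0.242% and 0.174% after P3FI-90 and 4.73%, 0.437% and 0.166% after DMSO. P3FI-90 was higher in 2 of 3 pairs, with folds of 1.12, 0.553 and 1.04 (two-sided exact sign-flip permutation p = 1). Without replicate 3 the mean log2 ratio of covered bases was 0.11, against -0.21 with all pairs. A covered length moves with how deeply a library was read, and the part of depth in these values was not tested.

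Fold enrichment, the height of a peak over the local background as the peak caller gives it, had nearly the same median in all lists. Its median was 3.02, 3.26 and 3.19 in P3FI-90 replicates 1, 3 and 5, against 3.02, 3.44 and 3.18 in the DMSO lists. The pair folds were 1.00, 0.946 and 1.00 (two-sided exact sign-flip permutation p = 1), and only replicate 3 differed by more than 1%. Peaks with a fold enrichment of at least 5 numbered 1961, 3 and 0 after P3FI-90 and 1532, 152 and 1 after DMSO. Peaks of that height were thus below 1% of every list.

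Widths spread further in replicate 1, with more peaks at both ends. Peaks over 1 kb made up 15.0%, 3.86% and 7.08% of P3FI-90 replicates 1, 3 and 5, against 14.4%, 4.49% and 5.35% of the DMSO lists. The median width was 354, 375 and 419 bases after P3FI-90 and 338, 388 and 405 bases after DMSO. These widths were cut by the caller and do not measure whole domains. The narrowest peaks (5th percentile) were 160 and 157 bases wide in replicate 1 and 275 bases in the other lists.

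**Figure D1:**
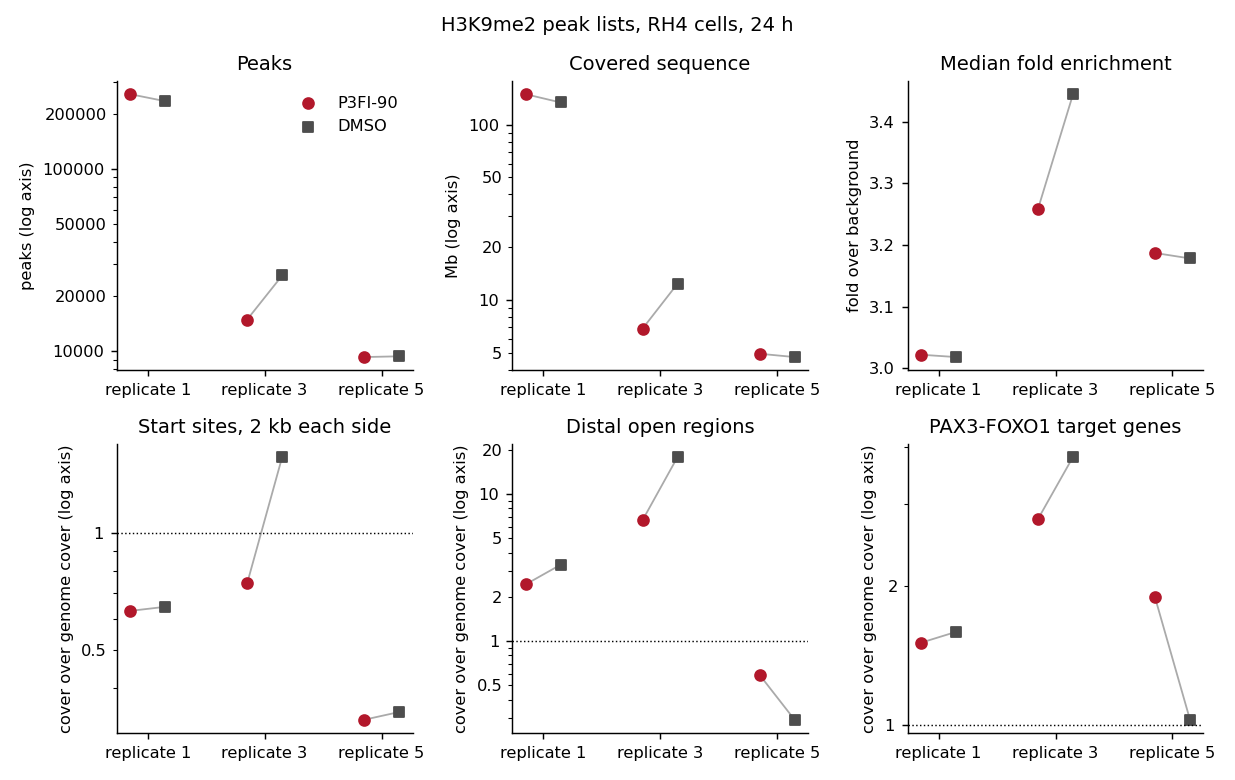
Values per H3K9me2 list by replicate number, P3FI-90 as red circles and DMSO as gray squares, joined within a replicate. Panels give peaks, covered Mb, median fold enrichment and the cover of start sites, distal open regions and PAX3-FOXO1 target genes over that of all chromosomes (log axes except the third; dotted line, genome average of 1). Only start site cover had P3FI-90 lower in 3 of 3 pairs, with folds of 0.976, 0.475 and 0.955.

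Lists of the same replicate number shared more bases than the other list's share of the chromosomes, yet most peaks were not shared. Within a pair, 17.7%, 15.8% and 23.7% of the P3FI-90 peaks in replicates 1, 3 and 5 overlapped a DMSO peak by at least 1 base, and 19.3%, 8.99% and 23.7% of the DMSO peaks overlapped a P3FI-90 peak. The covered bases were shared 3.65-, 25.8- and 128-fold more than the other list's share of the chromosomes. Across replicates, P3FI-90 replicates 3 and 5 shared 10.1% and 15.9% of their peaks, a base overlap 49.8-fold over the genome share. DMSO replicates 3 and 5 shared 1.27% and 3.41% of their peaks, a 3.79-fold base overlap. P3FI-90 replicate 3 was also far closer to DMSO replicate 5, at 41.4-fold, than DMSO replicate 3 was. By share of its own peaks, P3FI-90 replicate 3 overlapped its own DMSO list most among these, at 15.8%, against 10.1% with P3FI-90 replicate 5 and 8.36% with DMSO replicate 5. The order thus turned with the measure, since the fold takes the length of the other list into account.

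Base composition followed the same split. Covered bases were 42.0%, 38.7% and 30.9% G or C in P3FI-90 replicates 1, 3 and 5, against 42.3%, 47.5% and 30.8% in the DMSO lists. Both lists of replicate 5 were rich in A and T and both lists of replicate 1 were near the genome's 40.9%. Within replicate 3 the conditions lay on opposite sides of the genome value.

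Start sites of protein-coding genes, where transcription begins and H3K9me2 is usually low, were covered less than the rest of the genome in 5 of 6 lists. Relative cover, the covered share of a window over the covered share of all chromosomes in the same list, has a genome average of 1. Within 2 kb of start sites it was 0.631, 0.742 and 0.332 in P3FI-90 replicates 1, 3 and 5, against 0.646, 1.56 and 0.348 in the DMSO lists. P3FI-90 was lower in 3 of 3 pairs, by folds of 0.976, 0.475 and 0.955, and the two-sided exact sign-flip permutation p = 0.25 was the smallest that 3 pairs allow. Only DMSO replicate 3 lay above 1. Without replicate 3 the mean log2 ratio was -0.05, against -0.39 with it, so most of the mean difference came from that pair.

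**Figure D2:**
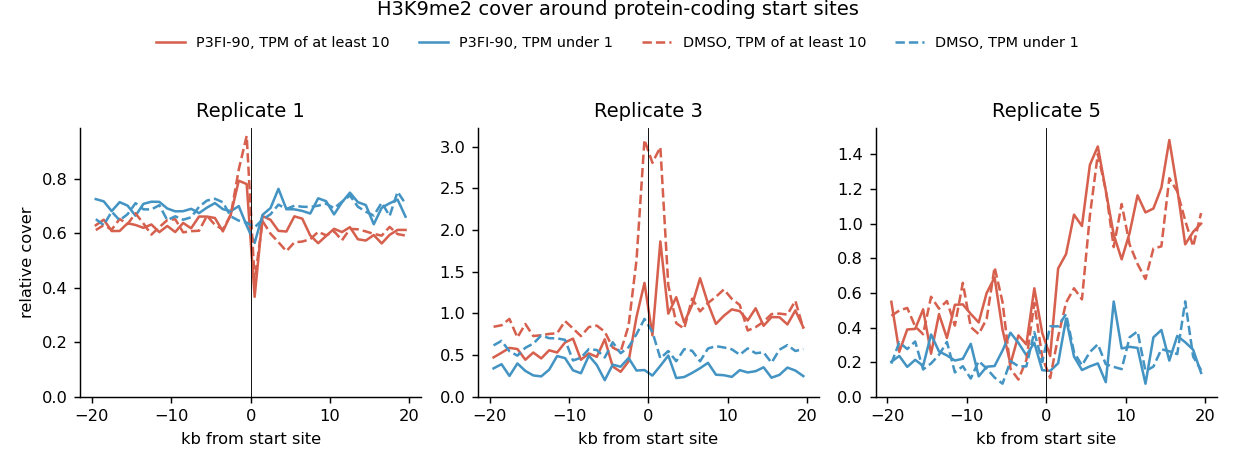
H3K9me2 relative cover (cover in 1 kb steps over the cover of all chromosomes of the same list) from 20 kb before to 20 kb after protein-coding start sites, one panel per replicate number with its own axis range. Solid lines are P3FI-90 and dashed lines DMSO, red for genes with a mean DMSO TPM of at least 10 and blue for genes under 1 TPM, and the expressed genes of DMSO replicate 3 peak at the start site while those of replicate 5 rise after it in both conditions.

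Distal open regions were marked by ATAC-seq peaks of DMSO cells more than 2 kb from a start site, from a single library at 4 h. Their relative cover by H3K9me2 was 2.43, 6.65 and 0.591 in P3FI-90 replicates 1, 3 and 5, against 3.31, 17.9 and 0.292 in the DMSO lists. The direction was not shared, with P3FI-90 lower in replicates 1 and 3 and higher in replicate 5 (two-sided exact sign-flip permutation p = 0.75). In replicate 5 only 0.103% (P3FI-90) and 0.0486% (DMSO) of the open region bases were covered, so its direction rests on few bases. Open chromatin and H3K9me2 are normally kept apart, and both lists of replicate 5 were below the genome average here, while DMSO replicate 3 was the highest. Without replicate 3 the mean log2 ratio turned to 0.29, against -0.29 with it.

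H3K9me2 bases were enriched in the HP1 peaks of the series, which come from 1 library per condition. Bases inside the HP1 peaks of DMSO cells made up 2.24%, 19.9% and 24.1% of P3FI-90 replicates 1, 3 and 5, against 2.54%, 9.19% and 19.7% of the DMSO lists, where those peaks cover 0.476% of the chromosomes. Every list was thus enriched for HP1, 4.70-, 41.8- and 50.6-fold after P3FI-90 and 5.34-, 19.3- and 41.4-fold after DMSO. With the HP1 peaks of P3FI-90 cells the enrichment was 4.10-, 31.0- and 31.4-fold after P3FI-90 and 4.69-, 17.3- and 24.9-fold after DMSO. The treated list held more HP1 in replicates 3 and 5 and less in replicate 1, with either HP1 list.

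H3K27me3, the mark of the separate Polycomb form of silent chromatin, split the lists another way. Its DMSO peaks overlapped the H3K9me2 bases 1.54-, 0.782- and 0.141-fold relative to the genome share in P3FI-90 replicates 1, 3 and 5, against 1.58-, 1.82- and 0.145-fold in the DMSO lists. H3K9me2 and H3K27me3 were largely apart in replicate 5 only. For H3K4me3, a mark of active start sites, the overlap with the DMSO list of replicate 1 was 1.01-, 3.95- and 0.439-fold after P3FI-90 and 1.25-, 9.49- and 0.209-fold after DMSO. This depended on the H3K4me3 list for replicate 5: with the DMSO list of replicate 3 the overlap was 0.722-, 4.67- and 2.42-fold after P3FI-90 and 0.882-, 5.74- and 1.52-fold after DMSO, so replicate 5 was above the genome share instead of below it. DMSO replicate 3 was the highest with each of the 6 H3K4me3 lists, and it was also the highest for ATAC-seq, at 13.2-fold against 0.208- to 4.80-fold in the other 5 lists.

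**Figure D3:**
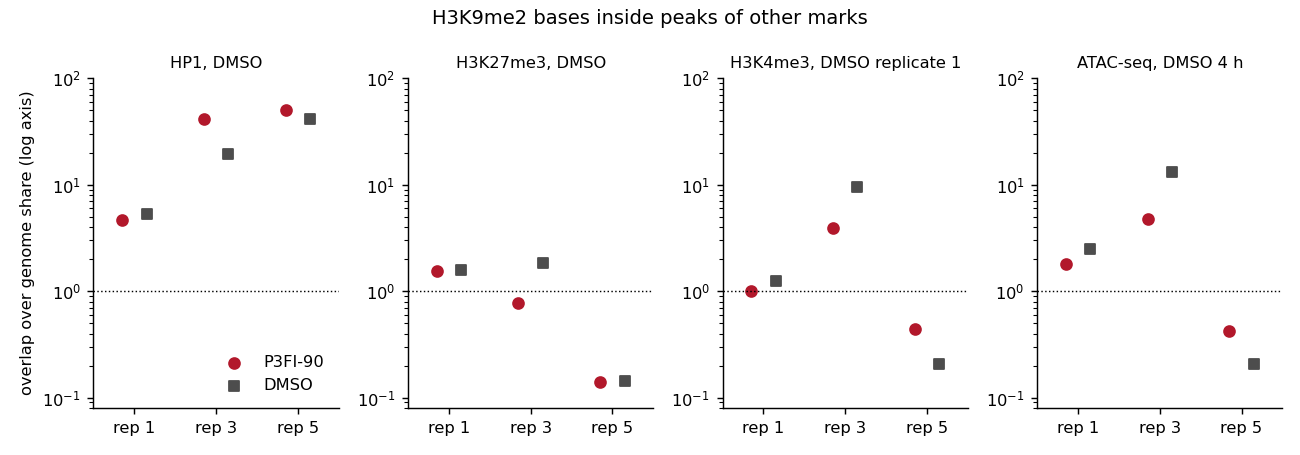
Share of H3K9me2 bases inside peaks of HP1, H3K27me3, H3K4me3 (replicate 1) and ATAC-seq in DMSO cells, over the share of the chromosomes those peaks cover (log axis; dotted line, no enrichment), for each H3K9me2 list by replicate. Red circles are P3FI-90 and gray squares DMSO; HP1 is enriched in all 6 lists, from 4.70- to 50.6-fold, while the other marks lie on both sides of 1.

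By chromosome, H3K9me2 was above the genome average in all 6 lists on chromosomes 2, 3, 7, 13, 18 and 20. Chromosome 3, with 6.87% of the sequence, held 9.80%, 16.6% and 27.1% of the covered bases of P3FI-90 replicates 1, 3 and 5, against 9.77%, 10.1% and 27.1% of the DMSO lists. The share was the same in both conditions in replicates 1 and 5, and higher after P3FI-90 in replicate 3. Chromosome 20 had a relative cover of 2.34, 2.15 and 1.71 after P3FI-90 and 2.39, 3.79 and 1.71 after DMSO. In replicate 5 chromosome 18 was above it, at 1.86 after P3FI-90 and 2.22 after DMSO. Chromosome 19, the most gene-dense, was low in all 6 lists, at 0.410, 0.0979 and 0.0416 after P3FI-90 and 0.449, 0.410 and 0.0443 after DMSO. The copy number of these chromosomes in RH4 was not analysed here.

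**Figure D4:**
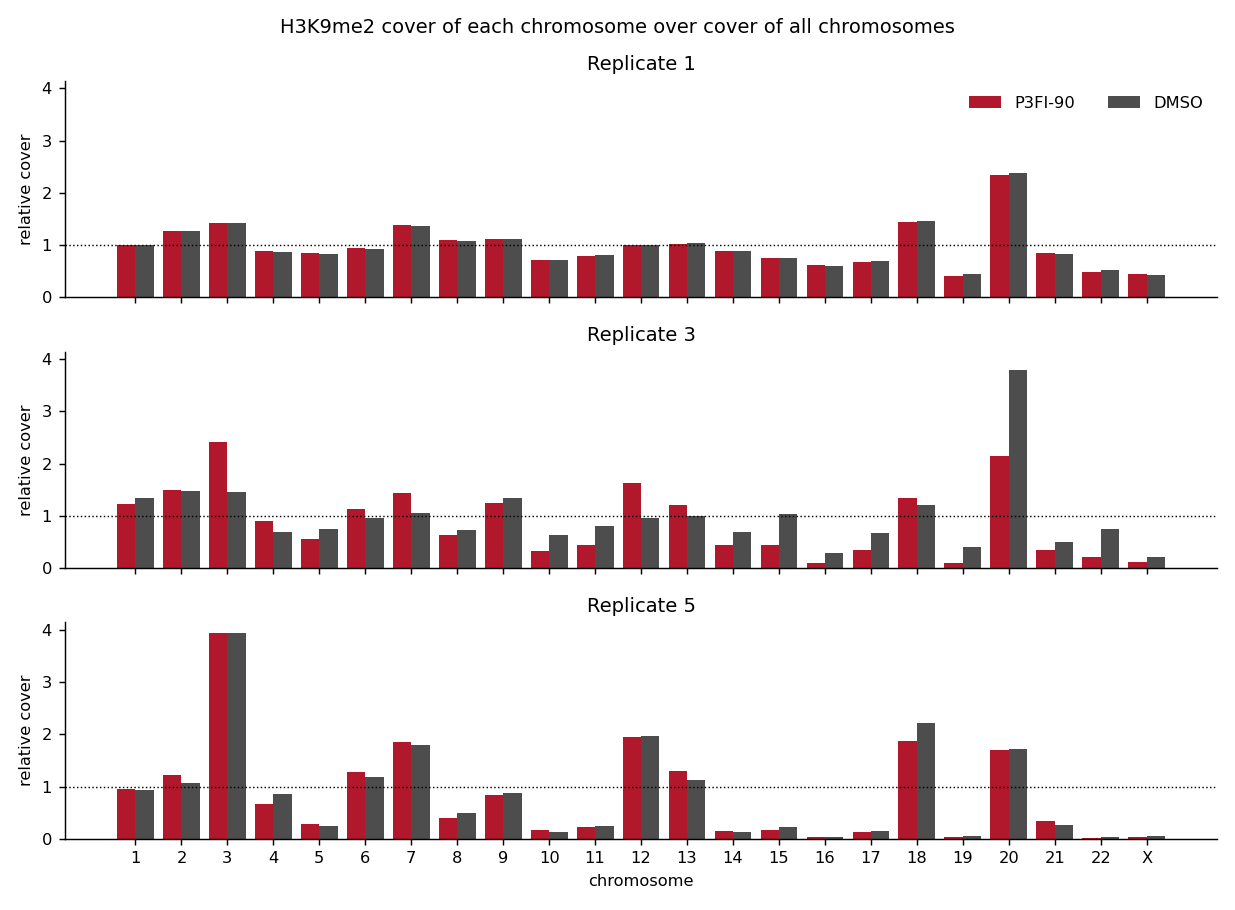
H3K9me2 cover of each chromosome over the cover of all chromosomes in the same list, P3FI-90 in red and DMSO in gray, one panel per replicate number (dotted line, genome average). Chromosome 3 reached 3.94 in both lists of replicate 5, and the panels of replicates 1 and 5 show near-equal bars while those of replicate 3 differ.

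To ask where the mark moved, the relative cover of 1 Mb bins was compared with limma. This linear model shares the spread across all bins and was blocked on replicate number, on log2(relative cover + 0.5). Relative cover is scaled to the total of its own list, so a change shared by the whole genome cannot show in it. Of 2583 bins tested, none passed an adjusted p of 0.05 (0% called), and 8 were higher and 13 lower at an unadjusted p under 0.05. All 3 P3FI-90 lists lay above all 3 DMSO lists in 9 bins (0.348%) and below them in 5 (0.194%). Bins higher in all 3 pairs numbered 168 and bins lower in all 3 numbered 183. The bin with the smallest p was chr8:65000001-66000000, with BHLHE22 and the oxysterol hydroxylase gene CYP7B1, at a relative cover of 0.572, 0.227 and 0.158 in P3FI-90 replicates 1, 3 and 5, against 0.354, 0 and 0 in the DMSO lists. Its log2 change was 0.42 with a limma adjusted p = 0.817, and the lists overlapped.

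Most bins with the strongest mark were strong in both conditions. A relative cover of at least 5 was found in all 3 P3FI-90 lists in 13 bins, in all 3 DMSO lists in 12 bins, and in all 6 lists in 11 bins, on chromosomes 1, 2, 3, 12 and 20. The highest floor was at chr2:221000001-222000000, which holds no protein-coding gene, with 9.31, 30.4 and 40.9 after P3FI-90 and 9.73, 11.7 and 44 after DMSO. The bin at chr3:8000001-9000000, with the muscle membrane gene CAV3 and the oxytocin receptor gene OXTR, had 8.86, 24.3 and 22.2 after P3FI-90 and 8.56, 28.1 and 20.01 after DMSO. Both bins held the mark at like levels in the 2 conditions except for replicate 3 on chromosome 2. The highest single value of any list was in chr3:85000001-86000000, with CADM2, at 3.66, 49.98 and 158 after P3FI-90 and 3.56, 4.39 and 149.99 after DMSO. The next bin, chr3:86000001-87000000, with CADM2 and VGLL3, was at 4.71, 46.6 and 130 after P3FI-90 and 5.14, 5.99 and 122 after DMSO, and HP1 was 23.4-fold over its own genome average in it after P3FI-90 and 35.6-fold after DMSO.

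The 24 shared stretches allowed the height of the mark to be compared where every list had a peak. They lay on chromosomes 3 (10), 1 (5), 2 (4), 4 (2), 12 (2) and 20 (1), and neighbours often shared a peak, since 19 to 23 distinct peaks lay over them per list. Fold enrichment was higher after P3FI-90 in 9 and lower in 15, and it was higher in 14 when each list was centred on its own median over the stretches. One stretch passed limma's adjusted p of 0.05 (4.17% called), chr2:221452751-221453076, the first of the printed sequences. Its fold enrichment was 2.77, 3.86 and 3.10 in P3FI-90 replicates 1, 3 and 5, against 3.94, 4.65 and 3.51 in the DMSO lists, lower in 3 of 3 pairs although the groups overlapped. The log2 change was -0.32 ± 0.10 (SE) with a limma adjusted p = 0.0484, and the call was lost without any 1 replicate, without the block and with the other settings that could be fitted.

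The VGLL3 stretch chr3:86971438-86972305, the highest on average at 4.30, was at 3.45, 4.24 and 4.51 after P3FI-90 and 4.23, 5.69 and 3.70 after DMSO. Its log2 change was -0.14 (limma adjusted p = 0.981), so its height was not distinguishable between conditions. In 1 stretch, chr2:221373458-221373727, all P3FI-90 lists lay above all DMSO lists (4.17%), at 3.34, 3.97 and 3.36 against 3.01, 3.19 and 3.22, with a log2 change of 0.18 (limma adjusted p = 0.563). The shared stretches were HP1 territory. HP1 peaks touched 22 of 24 in each condition and covered 90.2% of their bases with the P3FI-90 list and 80.6% with the DMSO list. Those HP1 lists cover 0.921% and 0.476% of the chromosomes, so the 90.2% and 80.6% do not compare HP1 between conditions.

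Relative cover, with the same scaling to each list's total, was then taken for each protein-coding gene with 50 kb on each side. Of 14048 genes tested, none passed limma's adjusted p of 0.05 (0% called), and 20 were higher and 26 lower at an unadjusted p under 0.05. Over all genes tested, 5178 were higher and 8870 lower, with a median log2 change of -0.12. More lower than higher members is thus the background for every gene list that follows. The lean was that of replicate 3, with 2539 genes higher and 6452 lower. In replicate 1 these were 7064 and 6930, and in replicate 5 they were 1457 and 1480. Without replicate 3, 7024 of 14048 genes were higher and the median was 1.9e-05. The counts and medians of the gene lists below include replicate 3. All P3FI-90 lists lay above all DMSO lists for 83 genes (0.591%) and below them for 68 (0.484%). Without replicate 1, with 2 pairs left, 8 genes were called higher and 47 lower.

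The genes with the smallest p did not pass the test and were extremes picked by p. CFAP36, a cilium-associated gene, was at 1.47, 1.76 and 2.96 after P3FI-90, against 0.565, 0 and 0 after DMSO, and TSPAN13, a tetraspanin gene, at 2.45, 3.21 and 1.21 against 1.02, 0.481 and 0. The lists did not overlap for either. In replicates 3 and 5 these values rest on short covered lengths. After P3FI-90 they were 0.425% and 0.516% of the CFAP36 window and 0.777% and 0.210% of the TSPAN13 window. MTMR6, AGR2 and PPP2R3C completed the 5 higher genes, with log2 changes of 1.65, 1.78 and 1.53. AGR2 is a neighbour of TSPAN13 and their windows overlap, so the 5 are not all separate loci. In the other direction, RAPGEF3, a cyclic AMP-activated exchange factor, was at 0.328, 0 and 0 after P3FI-90, against 1.2, 1.86 and 1.56 after DMSO. Its neighbour ENDOU, whose window overlaps that of RAPGEF3, was at 0.313, 0 and 0 against 1.25, 2.19 and 3.27. PIGF, GPR151 and CPA4 had log2 changes of -1.92, -1.32 and -1.42. All 10 had a limma adjusted p = 0.732, the lowest in the table.

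Among members of the gene lists, CADM2 and EYA4 had the highest relative cover. CADM2, a synaptic adhesion gene (chr3:85008140-86123579), was at 3.63, 44.9 and 151 after P3FI-90, against 3.68, 3.92 and 144 after DMSO. The conditions were near each other in replicates 1 and 5 and far apart in replicate 3, and the log2 change of 1.14 had a limma adjusted p = 0.732. EYA4, a cofactor of muscle and inner ear development (chr6:133561652-133853266), was at 4.98, 68.9 and 91.9 after P3FI-90, against 4.39, 15.8 and 68.8 after DMSO, higher in 3 of 3 pairs (log2 change 0.89, limma adjusted p = 0.732). Their mRNA changed by -0.44 and 0.21 on the log2(TPM + 1) scale.

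**Figure D5:**
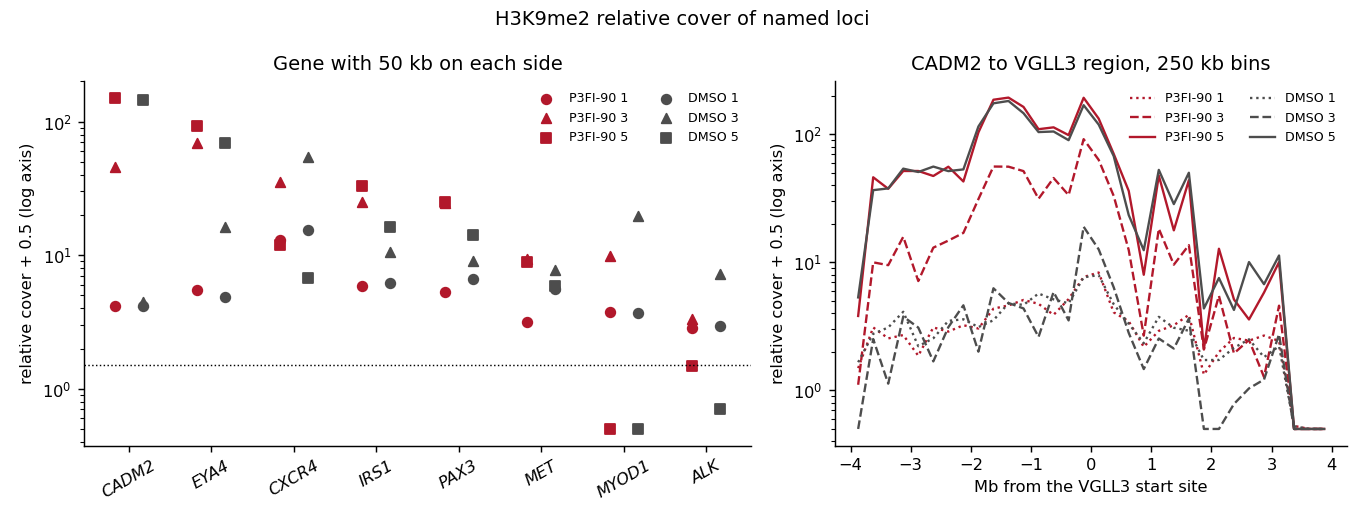
Left, H3K9me2 relative cover + 0.5 (log axis) of named genes with 50 kb on each side, red P3FI-90 and gray DMSO, with circles, triangles and squares for replicates 1, 3 and 5 (dotted line, genome average). Right, relative cover + 0.5 in 250 kb bins around the VGLL3 start site, with dotted, dashed and solid lines for replicates 1, 3 and 5. The axis follows genome coordinates, with CADM2 on the negative side. From 2 Mb on that side up to the start site, P3FI-90 replicate 3 lies at 30.7 to 91.4 in relative cover. DMSO replicate 3 lies at 1.51 to 18.5 there. The lines of replicate 5 are close there and part in several bins on the other side.

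PAX3-FOXO1 target genes held more H3K9me2 than the genome average in every list. The cover of the 36 listed genes with 50 kb flanks, relative to the chromosomes, was 1.51, 2.79 and 1.89 in P3FI-90 replicates 1, 3 and 5, against 1.59, 3.80 and 1.03 in the DMSO lists. P3FI-90 was lower in replicates 1 and 3 and higher in replicate 5 (two-sided exact sign-flip permutation p = 1). Of the 34 targets tested as single genes, none passed, 13 were higher and 21 lower, with a median log2 change of -0.06 against -0.12 over all genes. A few loci carried most of this cover. The median target had a mean relative cover of 0.62, below the genome average, against 0.22 over all protein-coding genes. In each list of replicate 5, 27 of the 36 targets were at 0. CXCR4 encodes a chemokine receptor and had a mean of 0 TPM in both conditions. Its cover was 12.5, 34.7 and 11.5 after P3FI-90 and 14.9, 54.0 and 6.20 after DMSO. IRS1, an adaptor of insulin-like growth factor signaling, was at 5.37, 24.6 and 32.4 against 5.71, 10.1 and 15.6.

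The receptor tyrosine kinase gene MET was at 2.65, 8.78 and 8.39 after P3FI-90 and 5.04, 7.27 and 5.35 after DMSO, so its groups overlapped. VCAM1, an adhesion receptor gene singled out after its values were seen, was the 1 of 34 targets whose lists did not overlap, against 0.591% of all genes tested. It was at 2.69, 5.75 and 9.70 after P3FI-90 and 1.97, 2.34 and 1.63 after DMSO (log2 change 1.25, limma adjusted p = 0.732). The largest changes otherwise were those of OLIG2, KCNN3 and EPHA7, at -1.69, -1.48 and 1.47, and each of these genes had at least 1 list at 0.

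MYOD1, the master regulator of muscle fate, and ALK, a receptor kinase gene and fusion target, are loci the study discusses. At MYOD1 the study shows read tracks and reports more H3K9me2 together with less RNA polymerase II at the gene body and enhancers. The values here are cover by peak calls of the gene with 50 kb on each side, another measure over a wider window. MYOD1 (chr11:17741118-17743683) was at 3.22, 9.30 and 0 after P3FI-90 and 3.22, 19.3 and 0 after DMSO, a log2 change of -0.34 (limma adjusted p = 0.735). Replicate 1 was level, replicate 3 was lower and replicate 5 had no peak in the window in either condition. ALK (chr2:29415640-30144452) was at 2.33, 2.82 and 0.975 after P3FI-90 and 2.48, 6.69 and 0.199 after DMSO, a log2 change of -0.04 (limma adjusted p = 0.976). Neither locus showed a change larger than the spread between pairs.

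The 19 myogenic regulators tested, MYOD1 and EYA4 among them, gave 7 higher and 12 lower, with a median log2 change of -0.22. PAX3, the fusion's own N-terminal partner, was at 4.76, 24.2 and 24.4 after P3FI-90 and 6.15, 8.60 and 13.6 after DMSO. It was higher in replicates 3 and 5 and lower in replicate 1, and its mRNA changed by -0.61 on the log2(TPM + 1) scale. Contractile genes gave 6 higher and 16 lower of 22, with a median of -0.47, and TTN, which encodes titin, was at 1.64, 3.17 and 0.927 after P3FI-90 and 1.66, 1.87 and 1.27 after DMSO. Among muscle tumor markers 3 were higher and 6 lower of 9. The acetylcholine receptor gene CHRNA1 was the 1 of 9 with all P3FI-90 lists below all DMSO lists, against 0.484% of all genes tested, at 1.76, 0.837 and 0 after P3FI-90 and 2.52, 7.72 and 1.87 after DMSO (log2 change -1.76, limma adjusted p = 0.732).

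Genes that write, erase or read H3K9 methylation gave 8 higher and 7 lower of 15, with a median of 0.04. KDM3A, the close relative of KDM3B, was at 3.16, 10.2 and 8.17 after P3FI-90 and 3.19, 5.08 and 3.34 after DMSO, higher in replicates 3 and 5 and level in replicate 1. The HP1 gene CBX3 was at 1.13, 2.49 and 1.81 after P3FI-90 and 1.5, 1.59 and 1.93 after DMSO. Apoptosis genes gave 7 higher and 14 lower of 21, hypoxia, ATF4 and stress genes 4 and 13 of 17, and ribosomal protein genes 3 and 9 of 12, with medians of -0.27, -0.12 and -0.44. None of these genes passed the test. Many members held no peak. Of 28 apoptosis genes, 20 and 23 were at 0 in P3FI-90 replicates 3 and 5, against 12 and 27 in the DMSO lists. All 25 ribosomal protein genes were at 0 in both lists of replicate 5. Their mean relative cover was 0.259 and 0.0461 in P3FI-90 replicates 1 and 3, against 0.247 and 0.426 in the DMSO lists.

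Large gene families, several of them known H3K9-methylated territory in other tissues, were counted in the same way, and none of their members passed. Olfactory receptor genes gave 162 higher and 192 lower of 354 with a median log2 change of -0.02, and zinc finger genes of chromosome 19 gave 53 and 115 of 168 with a median of -0.15. ZNF45, ZNF780A and ZNF780B were the 3 of 168 zinc finger genes with all P3FI-90 lists below all DMSO lists, against 0.484% of all genes tested, at log2 changes of -1.40, -1.55 and -1.42, and the windows of ZNF780A and ZNF780B overlap. Clustered protocadherin genes gave 23 and 28 of 51 and keratin genes 70 and 69 of 139, with medians of -0.02 and 0.01. HOX cluster genes gave 5 and 33 of 38, with a median of -0.40. All 39 HOX genes were at 0 in both lists of replicate 5. Their mean relative cover was 0.488 and 0.378 in P3FI-90 replicates 1 and 3, against 0.596 and 1.31 in the DMSO lists. The difference was thus larger in replicate 3. Long neural adhesion genes gave 15 and 18 of 33 with a median of -0.02, among them ROBO1, an axon guidance receptor gene, at 1.97, 7.90 and 21.8 after P3FI-90 and 1.81, 1.12 and 20.8 after DMSO. Neighbouring family members share windows, so these counts are not of independent loci.

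Bases covered in all lists of 1 condition and in no list of the other were few. There were 270 such stretches (44.2 kb) for P3FI-90 and 31 (4.01 kb) for DMSO, a ratio of 11 in covered bases. This ratio changed with the lists used. Without replicate 1 the ratio was 11.5, without replicate 3 it was 1.47 and without replicate 5 it was 0.529. When 2 or 3 lists of 1 condition and none of the other were asked for, P3FI-90 had 1290 kb and DMSO 1978 kb. Of the 270 stretches 91 were on chromosome 3, and the nearest genes were CADM2 for 29, EYA4 for 18, and EPHA4 and VGLL3 for 16 each. HP1 peaks covered 51.5% of their bases with the P3FI-90 list and 39.2% with the DMSO list. The P3FI-90 HP1 list is longer, at 0.921% of the chromosomes against 0.476%, so these shares do not compare HP1 between conditions.

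Genes with more H3K9me2 around them were not lower in RNA. By mean relative cover over the 6 lists, the 576 genes at 0 had a median of 0.22 TPM in DMSO replicate 1, against 3.87 TPM for cover up to 0.5, 4.71 for 0.5 to 1, 10.3 for 1 to 2 and 16.97 TPM for the 1101 genes over 2. Gene windows of 50 kb on each side include the flanks, so the mark need not lie on the gene itself. The median change in RNA after P3FI-90 on the log2(TPM + 1) scale was 0 in the first 3 classes and -0.01 and -0.03 in the others. In the other direction, genes of at least 100 TPM had a mean relative cover of 0.70, 1.13 and 1.02 after P3FI-90 and 0.695, 1.37 and 0.895 after DMSO, against 0.703, 0.396 and 0.277 after P3FI-90 and 0.70, 0.653 and 0.271 after DMSO for genes under 1 TPM. Replicate 1 did not separate the classes, and replicates 3 and 5 put more of the mark around the expressed genes in both conditions.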

How the data were processed

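H3K9me2 ChIP-seq was analysed in RH4 cells, 3 lists per condition. Fixed, sonicated chromatin with a Drosophila spike-in was precipitated with an Abcam antibody. The authors aligned reads to hg19 (GRCh37) with BWA and called broad peaks per library with MACS2. The supplement gives a threshold once for all H3K9me2 libraries, and the lists of replicate 1 fall below it. The reporting summary also names a threshold for ChIP-seq peaks, and every H3K9me2 list holds peaks below that. The deposited peak lists give fold enrichment (a ratio over background) and −log10 p, and no read counts. Read depths stand in the study's supplement by condition, without replicate numbers, and were not used here. Reads were normalized to the spike-in, but whether that touched the peak lists, and whether an input library was used, is not given in the sources used here. The authors' RNA-seq tables hold TPM from RSEM.

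Peaks with a −log10 p of at least 3 on chromosomes 1 to 22 and X were kept. Relative cover is the covered share of a window over that of all chromosomes in the same list. Values per list were compared by a two-sided exact sign-flip permutation test over 3 pairs. Bins of 1 Mb, genes (GENCODE 44 mapped to GRCh37, 50 kb flanks) and shared stretches were fitted in limma (version 3.58.1; R version 4.3.3). The response was log2(relative cover + 0.5) or log2 fold enrichment, with a mean-variance trend, replicate number as a block and Benjamini-Hochberg adjustment, and windows under a mean relative cover of 0.1 were left out. Fits of bins and genes were tested on simulated data with normal noise of equal spread, which does not copy the many windows at 0. The replicate numbers paired the lists: deviations from the condition mean correlated at 0.77, 0.39 and 0.74 in 1 Mb bins and 0.48, 0.20 and 0.45 over genes for replicates 1, 3 and 5. The study calls the replicates biological and the labels do not say that they were separate cultures, so p-values measure only the spread between these lists.

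Named genes were, per gene list, the 3 with the highest mean cover and the 3 with the largest change, the 5 genes, bins and shared stretches with the smallest p in each direction, the 3 stretches of highest fold enrichment, and MYOD1 and ALK. The lists and members were chosen with earlier results of these data known. Alternatives were a −log10 p of 5, all peaks, other windows, pseudocounts and filters, no block, and leaving out each replicate. Sequences are from the GRCh37 genome.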

Additional observations from a re-analysis of the deposited data

How the results depend on the processing

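With replicate 3 left out, several mean log2 ratios of P3FI-90 over DMSO changed sign: peak number to 0.057, covered bases to 0.11, median fold enrichment per list to 0.0029 and open regions to 0.29. Over the 3 settings that left out a replicate these ranged from -0.41 to 0.057, -0.40 to 0.11, -0.039 to 0.0029 and, for the open region cover ratio, -0.94 to 0.29, and the start site cover ratio from -0.57 to -0.05. The PAX3-FOXO1 target ratio ranged from -0.26 to 0.40, and was -0.12 at a −log10 p of at least 5, against 0.12. The log2 ratio of bases in 1 condition only was 3.46, and -0.62 when 2 or 3 lists sufficed. An alternative chosen after seeing the data, leaving out a replicate, gave -0.92 to 3.52, the lowest without replicate 5. With an overlap of at least 0.5 of the peak, 10.6%, 9.44% and 14.6% of P3FI-90 peaks were shared in replicates 1, 3 and 5. Genes called without replicate 1 were 8 higher and 47 lower, and 0 with the other left-out replicates. The 1 called shared stretch became 0 with all peaks, with centred fold enrichment, without each replicate and without the replicate block. Without the block, no other call changed (0 bins, 0 genes), and the mean log2 ratios of the pairs stay as they are, at -0.23 for peak number, -0.21 for covered bases, -0.02 for median fold enrichment, -0.39 for start sites, -0.29 for open regions and 0.12 for targets. The causes were not tested. Among named values that passed no test, 78 of 756 for genes, 4 of 99 for bins and 12 of 101 for stretches had another sign under an alternative. Stretches of 1000 bases or a −log10 p of 5 left too few to fit, and open regions at a −log10 p of 5 have no ratio. Read depth was not used, so no value per list carries a counting interval.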

Other observations

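The strongest peaks of replicate 1 were narrow and not shared with the other replicates. The top one, chr11:71484075-71484345, had a fold enrichment of 59.9 in P3FI-90 replicate 1 and 111 in DMSO replicate 1, and no peak in the other 4 lists. The highest peaks elsewhere were far lower, at 5.13 in P3FI-90 replicate 3, 4.81 in P3FI-90 replicate 5, 6.40 in DMSO replicate 3 and 5.00 in DMSO replicate 5. The widest peak of both lists of replicate 1 lay 85.5 kb from CXCR4, at 18920 bases after P3FI-90 and 16137 bases after DMSO, and all 6 lists covered part of it.

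Empty regions differed by replicate. Of 2846 bins of 1 Mb, 19, 1072 and 1666 held no peak in P3FI-90 replicates 1, 3 and 5, against 19, 644 and 1582 in the DMSO lists. The densest 1% of bins held 5.38%, 21.8% and 35.5% of the covered bases after P3FI-90 and 5.72%, 13.1% and 32.9% after DMSO.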
